A study of Mus musculus with 23 samples.

Results

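The comparison described here is that of wild-type (WT) knees after destabilization of the medial meniscus (DMM) with WT sham-operated knees, both collected 12 weeks after surgery. Its members are 6 of the 23 samples of the series, 3 WT DMM and 3 WT sham, chosen by their genotype, treatment and time labels and not by any measured value. RNA came from knee cartilage micro-dissected from males of the strain labelled C57BL/6-129, operated at 3 to 4 months of age. WT mice carry the genotype label TET1+/+, and the mutant mice of the same series, labelled TET-/- and called KO here, serve only as libraries outside the comparison. The labels give each of these groups as biological replicates, but they call the sham contralateral in one place and age-matched in another, so that whether DMM and sham knees came from the same mice is not settled.

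DMM is an operation that frees the medial meniscus from its attachment to the tibia, so that load falls unevenly on the joint surface. It is a standard mouse model of post-traumatic osteoarthritis, in which chondrocytes, the resident cells of cartilage, lose their matrix of aggrecan and type II collagen over the following weeks. Sham surgery opens the joint and leaves the meniscus in place. The question of the comparison is which transcripts differ between these knees at the later of the study's collection times.

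The counts are listed under transcript names, not gene names. A name that starts with uc is a UCSC transcript, and a name of the form MSTRG.a.b is transcript model b of the assembled locus MSTRG.a. None of the names was found in the reference tables (0 of 76639 loci and 90308 transcripts matched), so no gene, genome position, sequence or cell type marker is given, and the labelled tissue could not be checked against chondrocyte genes. Counts of the 26550 assembled models were summed to 12881 loci. The 63758 UCSC names each stayed on their own, so models of the same gene under different UCSC names were not joined, and a UCSC model that lies within an assembled locus is not part of that locus's sum.

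The 6 libraries held 96.2 M to 113 M counts each and detected 47867 to 50023 loci. At these depths 3 counts, the limit taken for a locus listed at 0, correspond to 0.0266 to 0.0312 CPM, where CPM is the count scaled to the library total. Spearman correlations across 32491 loci, which are not independent replicates, were 0.807 to 0.822 within WT sham, 0.771 to 0.821 within WT DMM and 0.777 to 0.834 between the groups. WT DMM replicate 3 stood apart, with correlations of 0.771 to 0.798 to the other 5 libraries, against 0.807 to 0.834 among those 5. The median over pairs was 0.812 between the groups, 0.813 within WT sham and 0.781 within WT DMM, so that libraries were not more alike within a surgery group than across.

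At 12 weeks 1 locus was called higher in WT DMM than in WT sham and 0 were called lower. Of 47228 loci tested by edgeR's quasi-likelihood test with Benjamini-Hochberg adjustment, this is 0.00212%. At an unadjusted p below 0.05 there were 1367 loci, 686 higher and 681 lower in DMM, or 2.89% of those tested, fewer than the 5% that evenly spread p-values would give. The median log2 fold change over all loci tested was 0.01 and the median size of the change, whatever its sign, was 0.33. The median standard deviation between replicates was 0.39 on the log2(CPM + 0.5) scale. The common dispersion of the fit was 0.858. In whole cartilage, fewer cells of a type and less RNA per cell cannot be told apart.

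**Figure D1:**
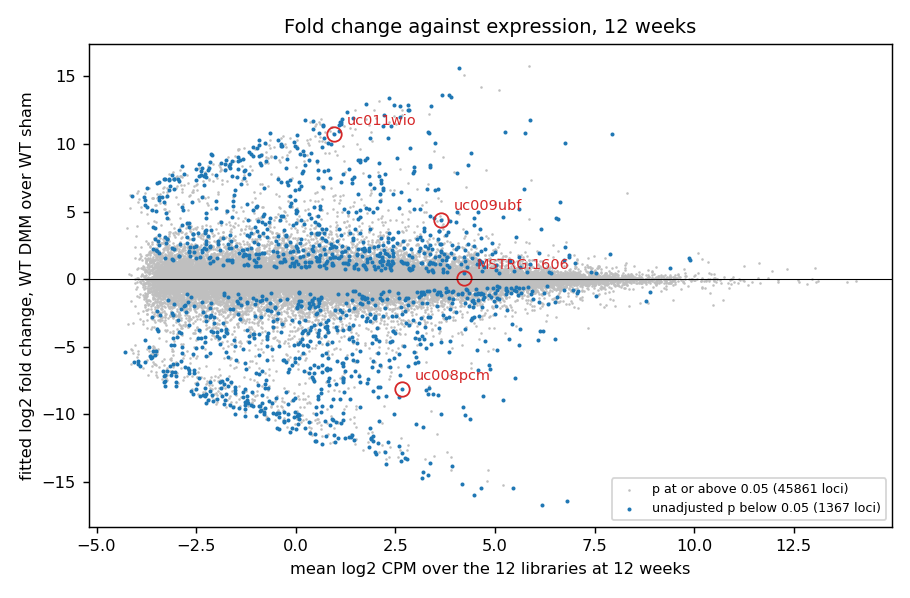
Fitted log2 fold change of WT DMM over WT sham at 12 weeks (vertical axis) against the mean log2 CPM of the 12 libraries at that time (horizontal axis), with 1 point for each of 47228 loci. The 1367 loci at an unadjusted p below 0.05 (blue) lie above and below 0 in nearly equal numbers, and the wedge of extreme values is made by loci at 0 in a group, whose fitted fold depends on the prior count. Red circles mark the 4 loci named in the text.

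The locus called higher in WT DMM was uc011wio, a UCSC transcript whose gene is not given in the files. It was at 2.66, 2.51 and 1.68 CPM in WT DMM replicates 1, 2 and 3, and at 0 in all 3 WT sham libraries. The groups did not overlap, and every DMM library was far above the limit that 3 counts set. The mean of 2.28 ± 0.528 CPM (SD, n = 3) was at least 84.7-fold higher than that limit in the shallowest sham library (edgeR adjusted p = 0.00461). The adjusted p was 2.18e-14 by DESeq2 and 0.0159 by limma-voom. The call was lost in 3 of 14 alternatives: with only the 6 WT libraries in the fit (edgeR adjusted p = 0.161), with all 22 usable libraries of the series (edgeR adjusted p = 1) and in the fit blocked on replicate number (edgeR adjusted p = 0.263). Over the 14 alternatives the adjusted p ranged from 2.18e-14 to 1.

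Outside the comparison, uc011wio was above 0 in each usable library other than KO DMM replicate 3 at 6 weeks, and WT sham at 12 weeks was the group without it. In KO knees at 12 weeks it was at 2.47, 2.58 and 3.10 CPM in sham and at 3.05, 2.84 and 2.32 CPM in DMM. The KO groups overlapped, with a fitted log2 fold change of -0.05 (SE 0.35) for KO DMM over KO sham. At 6 weeks it was at 4.43 CPM in the WT sham library that could be used. WT DMM at 6 weeks ran from 0.0141 CPM in replicate 1 through 1.70 CPM in replicate 3 to 3.95 CPM in replicate 2, and KO DMM replicate 3 at that time was at 0. A level at or near 0 was thus also seen in DMM libraries, and the 3 replicates of a group did not always share it.

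The locus next in the order of p, uc009ubf, did not pass the test. It was at 8.17, 9.77 and 18.4 CPM in WT DMM replicates 1, 2 and 3, and at 0.646, 0.458 and 0.550 CPM in WT sham. All 3 DMM libraries were above all 3 sham libraries, which was a condition for naming this locus. The means were 12.1 ± 5.50 CPM (SD, n = 3) and 0.551 ± 0.0942 CPM (SD, n = 3), and the fitted log2 fold change was 4.42, with an SE of 0.49 (edgeR adjusted p = 0.0688). It passed by DESeq2 (adjusted p = 6.10e-17) and, by edgeR, without WT DMM replicate 1 (adjusted p = 0.0410). The adjusted p over 14 alternatives ranged from 6.10e-17 to 1. Other UCSC loci higher in WT DMM shared the edgeR adjusted p of 0.0688 in the main fit. Among them was a locus at 10.9 to 24.4 CPM in WT DMM and 0 in WT sham. Another was at 9.54 to 21.5 CPM in WT DMM and 0.700 to 0.726 CPM in WT sham.

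As for uc011wio, the values of uc009ubf elsewhere in the series set the WT sham group of 12 weeks apart. KO knees at 12 weeks were at 12.4 to 27.8 CPM in sham and 11.2 to 28.8 CPM in DMM, with a fitted log2 fold change of 0.01 (SE 0.43). At 6 weeks the usable WT sham library was at 36.2 CPM. Single libraries at 6 weeks were low: 1.85 CPM in WT DMM replicate 1, 1.22 CPM in KO sham replicate 1 and 1.01 CPM in KO DMM replicate 1, where the other replicates of these groups were at 12.4 to 30.5 CPM. All 3 low libraries were replicate 1 of their group.

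Among loci lower in DMM with a mean log2 CPM of at least 1, uc008pcm had the smallest p. It was at 11.7, 8.22 and 5.47 CPM in WT sham replicates 1, 2 and 3, and at 0.0390, 0.0520 and 0 CPM in WT DMM, where these values stand for 4, 5 and 0 counts. The groups did not overlap, which was a condition for naming this locus. Sham averaged 8.48 ± 3.15 CPM and DMM 0.0303 ± 0.0271 CPM (SD, n = 3 each). The fitted log2 fold change was -8.10, with an SE of 1.10, and missed the threshold (edgeR adjusted p = 0.283). It passed by DESeq2 (adjusted p = 5.95e-23), in a range over 14 alternatives from that value to 1.

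Here the WT DMM group was the one that stood apart at 12 weeks. KO DMM at that time was at 5.97 to 7.62 CPM and KO sham at 5.71 to 16.5 CPM, with a fitted log2 fold change of -0.53 (SE 0.80). At 6 weeks WT DMM was at 4.66, 20.7 and 12.6 CPM in replicates 1, 2 and 3, while the usable WT sham library was at 0.152 CPM, the opposite order to that at 12 weeks. KO sham at 6 weeks was at 0.0499, 32.1 and 0.0921 CPM in replicates 1, 2 and 3, and KO DMM at 16.7, 22.3 and 0.05 CPM. Replicates of these KO groups thus held both the high and the low level.

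**Figure D2:**
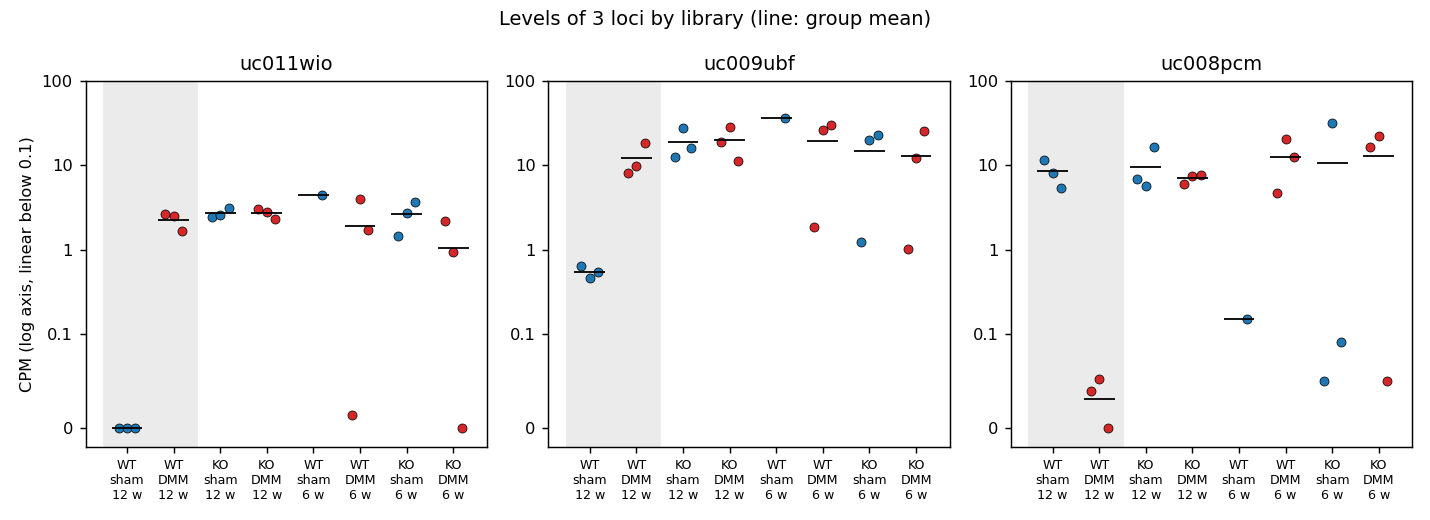
CPM of uc011wio, uc009ubf and uc008pcm in the 22 usable libraries, on a log axis that is linear below 0.1, by genotype, surgery and weeks (w) after surgery, with sham in blue, DMM in red and a line at each group's mean. The 6 libraries compared (shaded) separate without overlap, which was a condition for naming uc009ubf and uc008pcm. Single libraries of the 6-week groups sit at both the low and the high level.

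In MSTRG.1606, an assembled locus, a transcript model passed the test while the locus did not. It has 2 models in the count table. The model MSTRG.1606.1 was at 10.4, 15.9 and 25.4 CPM in WT sham replicates 1, 2 and 3, and at 0.752, 0.644 and 0.659 CPM in WT DMM. Taken alone it fell, its mean 25.1-fold lower in DMM, and the fitted log2 fold change was -4.67, with an SE of 0.44 (edgeR adjusted p = 0.0392 over 57350 transcripts). The other model, MSTRG.1606.9, was at 0 in all 3 sham libraries and at 17.5, 18.8 and 16.6 CPM in DMM, at least 654-fold above the limit of 3 counts, but did not pass (edgeR adjusted p = 1, unadjusted p = 0.0102, and adjusted p = 1.35e-19 by DESeq2). MSTRG.1606.1 no longer passed in 8 of 14 alternatives. Among them were the fits that left out a WT DMM library (replicate 1, 2 or 3) or replicate 2 of WT sham, with edgeR adjusted p-values of 0.0809 to 0.124. In the others the edgeR adjusted p was 0.0501 where low counts were not filtered, 0.149 with only the 6 WT libraries, 0.539 in the fit blocked on replicate number and 1 with all 22 usable libraries.

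Summed, the locus was at 10.4, 15.9 and 25.4 CPM in sham and 18.2, 19.4 and 17.3 CPM in DMM. The DMM values lay within the range of the sham values. The means were 17.2 ± 7.59 CPM and 18.3 ± 1.08 CPM (SD, n = 3 each), and the fitted log2 fold change was 0.06, with an SE of 0.45 (edgeR adjusted p = 1). What differed was the model that received the counts: MSTRG.1606.1 took 100% of the locus in each sham library and 3.32% to 4.13% in each DMM library.

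In KO knees at 12 weeks the share of MSTRG.1606.1 was also higher in every sham library than in every DMM library. MSTRG.1606.1 took 3.56% to 11.6% of the locus in KO DMM, and 100% in KO sham replicates 2 and 3 but 46.3% in KO sham replicate 1. This locus was named because an earlier analysis of these data called a transcript of it. Which libraries that analysis used is not given, so the KO shares may not be independent of the choice. At 6 weeks the shares did not follow surgery: MSTRG.1606.1 took 100% in the usable WT sham library and also in replicate 1 of both WT DMM and KO DMM, and 4.04% to 4.92% in WT DMM replicates 2 and 3. In KO sham at 6 weeks it took 4.30% in replicate 3 and 86.0% in replicate 1.

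**Figure D3:**
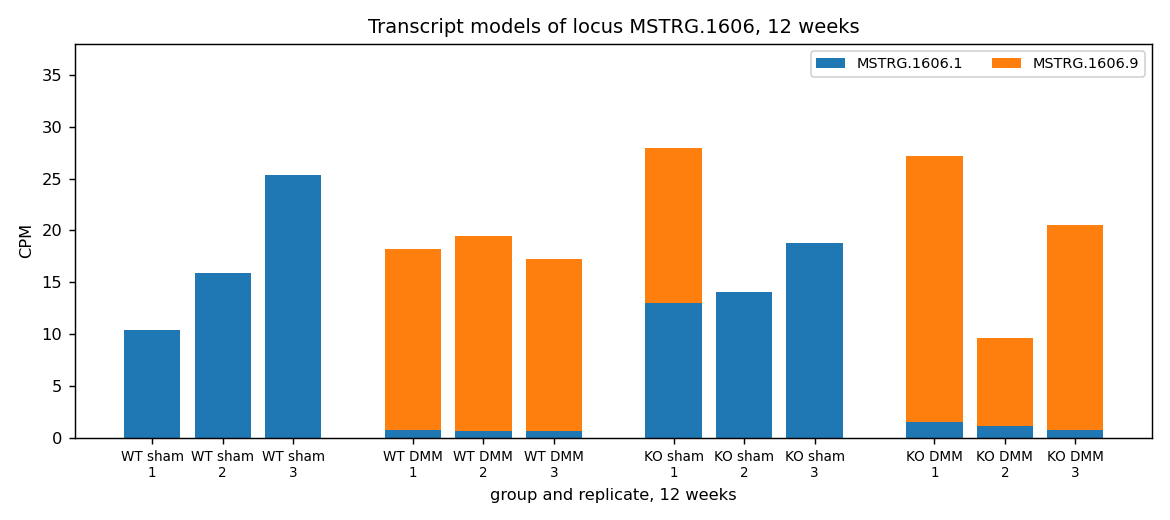
CPM of the 2 transcript models of locus MSTRG.1606 in each of the 12 libraries at 12 weeks, stacked so that the height of a bar is the locus total. WT sham libraries hold only MSTRG.1606.1 and WT DMM libraries almost only MSTRG.1606.9, while the bar heights of the groups overlap.

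The same was asked of all 3780 assembled loci with several tested models. At least 1 model was at an unadjusted p below 0.05 in 561 of these loci (14.8%), and 729 of their 13941 models were (5.23%, against 3.30% of all 57350 transcripts). Of the 561 loci, 47 had an unadjusted p below 0.05 themselves, or 8.38%, and 514 did not. In 60 loci models at that threshold moved in opposite directions, and 4 of these 60 loci passed it as a sum. Among all 3780 loci 84 did, or 2.22%. The sum includes the models by which the 561 loci were chosen, so the higher share among them is no separate support. A locus with more models also has more occasions to hold at least 1 below the threshold.

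A large change in the share of a model was rare by the following rule. In 14 of 3461 assembled loci at 1 CPM or more in all 6 WT libraries, a model took over 50% of the counts in all 3 libraries of a group and under 10% in all 3 of the other. For these 14 loci the log2 fold changes of the sum ran from -1.75 to 0.94, and 1 locus had an unadjusted p below 0.05. KO knees at 12 weeks gave 17 of 3378 loci by the same rule, and 0 loci met it in both genotypes. Of the 16 models that met it in WT, 9 had a share that differed in the same direction on average in KO. These 16 models belong to the 14 loci, and both models of MSTRG.1606, whose shares mirror each other, are among them. The share over all models is not given, so 9 of 16 has no background.

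Loci were then grouped by what they are and how strongly they were expressed. UCSC names had an unadjusted p below 0.05 in 1077 of 35552 loci (3.03%) and assembled loci in 290 of 11676 (2.48%). By bins of 11807 loci each, the share was 3.63% in the lowest bin of mean expression, 3.48% in the next, 2.76% in the third and 1.70% in the highest, against 2.89% of all loci. The median size of the log2 fold change was 0.57, 0.40, 0.30 and 0.20 in the same order. The share with a log2 fold change beyond 1 in either direction was 30.2% in the lowest bin and 6.50% in the highest. From the lowest bin to the highest, 3.92%, 3.60%, 2.86% and 1.52% of UCSC names had an unadjusted p below 0.05. For assembled loci these shares were 2.25%, 3.10%, 2.51% and 2.13%, so the order of the classes was reversed in the highest bin.

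Loci whose WT DMM and WT sham values did not overlap numbered 2138 higher in DMM (4.53% of those tested) and 1605 lower (3.40%). The excess of higher loci depended on scaling: with TMM-scaled CPM, a choice made after seeing the data, there were 1920 higher and 1854 lower, so that the share of higher loci went from 57.1% to 50.9%. In KO knees at 12 weeks the values of DMM and sham did not overlap for 1633 loci higher (3.46%) and 1307 lower (2.77%). With 3 libraries a side, values can also separate without any effect of surgery, and how often was not estimated.

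The widest contrasts were loci at 0 in all 3 libraries of a WT group and at 1 CPM or more in all 3 of the other. There were 14 loci of this kind present in DMM (0.0183% of all 76639 loci) and 22 present in sham (0.0287%). The 14 had a median of 4.67 CPM in DMM and a highest mean of 16.6 CPM, and 4 of them were assembled loci. The 22 had a median of 5.18 CPM in sham and a highest mean of 47.9 CPM, and 7 were assembled loci. All 36 were at an unadjusted p below 0.05 in edgeR's fit, against 2.89% of all loci tested. They were chosen by their values in these same libraries, so their small p is no separate support. After adjustment 1 of them, uc011wio, passed.

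Presence and absence of these loci did not carry over to KO knees. None repeated the pattern in KO knees at 12 weeks (0 of 14 and 0 of 22). Of the 14 present in WT DMM, 11 averaged 1 CPM or more in KO sham, and of the 22 present in WT sham, 10 averaged 1 CPM or more in KO DMM. In 33 of the 36 loci at least 1 of the 5 other groups with 3 libraries held both a library at 0 and a library at 1 CPM or more. This mixture within a group was seen in 9150 of all loci tested (19.4%), and within the groups compared in 2783 loci in WT DMM (5.89%) and 2351 in WT sham (4.98%). KO sham and KO DMM at 12 weeks on their own gave 23 loci present in DMM only and 23 present in sham only.

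The 50 loci with the smallest p in each direction were followed in libraries outside the contrast. Of these, the KO libraries at 12 weeks were part of the fit, through the filter on low counts, the TMM scaling and the shared estimate of spread. Their own differences, which chose them, had medians of 1.94 for the higher and -2.01 for the lower loci on the log2(CPM + 0.5) scale. In KO knees at 12 weeks the median difference between DMM and sham was 0.05 for the 50 higher loci and 0.01 for the 50 lower loci. The sign was the same in 29 of the higher (58.0%, against 59.1% of all 23921 loci higher in WT DMM) and in 20 of the lower (40.0%, against 52.8% of all lower loci). The values of KO DMM and KO sham also separated without overlap in some of these loci. For the 50 higher loci this was in the same direction as in WT in 7 (14.0%, against 3.84% of all higher loci) and in the opposite direction in 1 (2.00%, against 2.01%). For the 50 lower loci this was in the same direction in 8 (16%, against 3.54% of all lower loci) and in the opposite direction in 8 (16%, against 3.07%). Whether these shares differ from those of all loci was not tested. Against a WT sham library at 6 weeks, the sign was the same in WT DMM of that time in 22 of the higher (44.0%, against 42.6% of all) and in 20 of the lower (40.0%, against 52.0% of all lower loci).

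**Figure D4:**
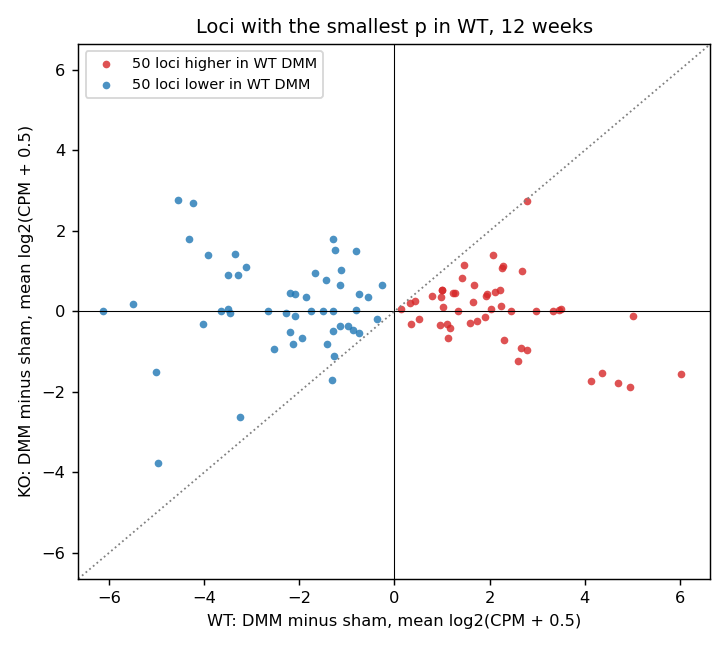
Difference between DMM and sham in mean log2(CPM + 0.5) at 12 weeks in WT (horizontal axis) and in KO (vertical axis) for the 50 loci with the smallest p in each direction in WT, 1 point per locus, with a dotted line where both would be equal. The horizontal spread is how the loci were chosen, and along the vertical axis both sets are centred near 0, with medians of 0.05 and 0.01.

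Over all 47228 loci the WT and KO differences had a Pearson correlation of 0.0627 and a Spearman correlation of 0.120. The corresponding values for WT at 12 weeks and WT at 6 weeks were -0.0206 and -0.0239. These comparisons share no library, loci are not independent of each other, and the 6-week difference rests on a single sham library. The difference between the genotypes in the response to DMM was tested in the same fit. It called 2 of 47228 loci (0.00423%) by edgeR, and 1508 had an unadjusted p below 0.05 (3.19%). Both called loci had a lower log2 fold change of DMM over sham in KO than in WT, which is not a statement about their level in KO. The first was uc011wio, with an interaction of -10.80 on the log2 scale (edgeR adjusted p = 0.0117). For uc009ubf and uc008pcm the interaction was -4.40 and 7.57 and did not pass (edgeR adjusted p = 0.219 and 0.385).

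How many loci are called depended on the test. DESeq2's Wald test on the same loci called 518 (1.10%), 233 higher and 285 lower, and limma-voom called 6 (0.0127%), 2 higher and 4 lower. The edgeR call was among both sets, and 5 of the 6 limma-voom calls were among those of DESeq2. Of the 518 DESeq2 calls, 309 were at 0 in all 3 libraries of a WT group. Groups did not overlap in 220 of the 518 (42.5%, against 7.93% of all loci). By edgeR, 334 of the 518 had an unadjusted p below 0.05, against 2.89% of all loci tested. The 518 were chosen by their values in these same libraries, so their separation and small edgeR p are no separate support. All 6 limma-voom calls were loci at 0 throughout a WT group. How many of all loci tested were at 0 throughout a WT group is not given, so these counts at 0 have no background. The limma-voom call with the most counts was an assembled locus at 29.5 to 39.8 CPM in sham and 0 in DMM, whose edgeR adjusted p was 0.285. Before summing to loci, edgeR called 2 of 57350 transcripts (0.00349%), uc011wio and MSTRG.1606.1, with 1892 at an unadjusted p below 0.05 (3.30%).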

How the data were processed

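RNA libraries of micro-dissected knee cartilage were made with a SMART-seq2 kit, per the labels' protocols, and those of a time point were sequenced together. The build mm10 and the tools Trimmomatic, HISAT2, DESeq2 and CASAVA 1.4 are named in the submitters' processing notes, without roles. Which program divided reads among transcript models is not stated there. The deposited values are estimated counts for each transcript model, in whole numbers and without normalization. The 4 deposited tables of comparisons hold none of WT DMM against WT sham at 12 weeks and were not used.

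Counts were summed to loci (MSTRG.a.b to MSTRG.a, UCSC names to the part before the dot, which joined none). CPM was taken over column totals. The main test was edgeR 4.0.16 in R 4.3.3: TMM, filterByExpr by group, 1 mean per group over the 12 libraries at 12 weeks, quasi-likelihood tests with robust estimates, and adjustment by Benjamini-Hochberg over 47228 loci, a locus being called where its adjusted p was below 0.05. The genotype by surgery interaction came from the same fit. DESeq2 1.42.0, limma-voom (limma 3.58.1), other filters and size factors, a replicate block, other sets of libraries, transcript rows and leaving out each replicate were alternatives, and the scripts were tested on simulated data. WT sham replicate 1 at 6 weeks was left out, since its Spearman correlations with the other columns were 0.0723 to 0.0927. The named loci were the loci of 2 transcripts called in an earlier analysis and, in each direction, the other locus of smallest p among those whose groups do not overlap and whose mean log2 CPM is 1 or more. Gene and marker lists could not be applied to these names. The members, lists and named loci were chosen with earlier results of these data known.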

Additional observations from a re-analysis of the deposited data

Results flagged for a closer look

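The response to DMM at 12 weeks differed between genotypes for 2 loci by a test of the interaction. The locus uc011wio had an interaction of -10.80 on the log2 scale (edgeR adjusted p = 0.0117), and was at 0 in the WT sham libraries, while the means of WT DMM, KO sham and KO DMM lay between 2.28 and 2.74 CPM. Over 19 alternatives the adjusted p lay between 9.14e-14 (DESeq2) and 1 (all usable libraries), and it was 0.0846 by limma-voom.

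The locus uc008vvl had an interaction of -9.74 (edgeR adjusted p = 0.0312). It was at 0 in all 3 KO DMM libraries and at 1.29 ± 0.242 CPM in WT DMM, 1.51 ± 0.323 CPM in WT sham and 1.36 ± 0.263 CPM in KO sham (SD, n = 3 each). It did not pass the test between WT DMM and WT sham, where the fitted log2 fold change was -0.26, with an SE of 0.39 (edgeR adjusted p = 1). The interaction did not pass by limma-voom (adjusted p = 0.194), or by edgeR when WT DMM replicate 1 or 3, replicate 2 of KO sham, or any WT sham replicate (1, 2 or 3) was left out (adjusted p from 0.0528 to 0.120), in a range over 19 alternatives from 1.23e-09 by DESeq2 to 1 with all usable libraries. At 6 weeks uc008vvl was at 0 in each usable library except WT DMM replicate 3, at 1.14 CPM.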

How the results depend on the processing

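The count of loci called between WT DMM and WT sham, 1 by edgeR, stayed at 1 with RLE size factors, without a filter on low counts and with a mean CPM of at least 1. It was 518 by DESeq2, 6 by limma-voom, 2 over transcript rows, 0 with all 22 usable libraries (1577 at an unadjusted p below 0.05) and 0 with only the 6 WT libraries (1128). Leaving out 1 replicate gave 1 to 13, the highest without WT DMM replicate 1, then 8 without WT DMM replicate 2, 4 without WT sham replicate 3, 3 without WT sham replicate 1 and 2 without WT sham replicate 2. The interaction, 2 by edgeR, was 745 by DESeq2, 1 over transcript rows, 0 with all 22 usable libraries (1923 at an unadjusted p below 0.05) and 0 by limma-voom (1120). Leaving out 1 replicate gave 1 to 30: the counts were 30, 18 and 13 when KO DMM replicates 1, 2 and 3 were dropped in turn, 12 and 8 for KO sham replicates 1 and 3, 5, 10 and 1 for the WT DMM libraries and 4, 6 and 4 for the WT sham libraries, each in the order of replicates 1, 2 and 3.

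Deviations from the group means correlated at 0.0507, 0.0804 and 0.0941 between same-numbered WT DMM and WT sham libraries. Each of these libraries correlated best with its own number, and unequal WT numbers gave -0.0721 to -0.00569. The same-numbered KO libraries had 0.239, 0.0323 and 0.106, and unequal KO numbers gave -0.174 to 0.0885. Neither the labels nor these values settle whether equal numbers mark the same mouse. The main fit was run without a replicate block. With the replicate block edgeR called 0 loci between WT DMM and WT sham (1010 at an unadjusted p below 0.05) and 0 for the interaction (1049), and the adjusted p of uc011wio was 0.263 for surgery and 0.520 for the interaction. The cause of these changes was not tested.

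Over 14 alternatives the log2 fold change was 3.99 to 4.64 for uc009ubf and -8.73 to -7.54 for uc008pcm, whose sign is set by the choice of loci with groups that do not overlap. That of uc011wio, at 0 in WT sham, depends on the prior count. The sum of MSTRG.1606, which did not pass in any, ranged from -0.18 without WT sham replicate 1 to 0.45 without WT sham replicate 3. Depth sets the lowest level that can be told from 0, since 3 counts are at most 0.0312 CPM in a WT library at 12 weeks. This limit covers counting error only, and no alternative varied depth.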
